A study of Mus musculus with 4 samples.

Results

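Integrins, selectins and the immunoglobulin-type adhesion molecules that bind them were described in preparations labelled as mononuclear cells of the spinal cord from C57BL/6 mice. The mice had experimental autoimmune encephalomyelitis (EAE), in which immunization causes an inflammatory, demyelinating disease that serves as a model of multiple sclerosis. The members were the rows of the deposited expression table that carry 1 of 35 gene symbols, and these were 36 of 32246 rows because Itgam is listed under 2 identifiers. They were divided by role into 8 leukocyte integrins, 18 matrix integrins and 9 endothelial partners, 1 of which, Selplg, is carried by leukocytes. The division was made with earlier results of these data known, and it used no measured value.

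Mice received microPEP155 (P155), a micropeptide named for the transcript that also carries microRNA-155, or a scramble micropeptide (Scr). Both groups had EAE and no untreated group was analysed here. Treatment was given on alternate days from day 8 after immunization, and cells were isolated on a Percoll gradient. There were 2 P155 libraries and 2 Scr libraries of poly(A) RNA, numbered 4 and 5 in each group, with 30777553 to 64702948 reads behind the table. P155 replicate 5 was the shallowest, so its values carry the most counting error. The labels do not say that the libraries came from separate animals, nor how many animals gave each one, so each p-value reflects only how far these samples differed from each other, and that may be technical.

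Integrins are receptors made of 1 alpha and 1 beta chain. Leukocyte integrins arrest cells on vessel walls and work at immune contacts, while matrix integrins bind laminins, collagens, fibronectin and vitronectin. Entry of leukocytes into the inflamed cord starts with rolling on selectins and goes on to firm arrest, in which alpha-4 integrins bind VCAM1 and beta-2 integrins bind ICAM1. Antibodies to the alpha-4 chain are used to treat multiple sclerosis because they block this step.

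Levels are given as log2(normalized reads + 1), where normalized reads are reads divided by the library's size factor, and differences are P155 minus Scr on the same scale. The labelled cell type was checked by markers. All 6 pan-leukocyte genes, such as Ptprc, had reads in every library, and so did all 5 oligodendrocyte and all 5 neuron markers. Summed normalized reads were 24469 and 15847 in P155 replicates 4 and 5, against 29556 and 40042 in Scr replicates 4 and 5, for pan-leukocyte genes. For oligodendrocyte markers, such as Mbp, the sums were 679250 and 722370 in P155 replicates 4 and 5, against 634394 and 650230 in Scr replicates 4 and 5. Astrocyte markers summed to 376475 and 339637 in P155 replicates 4 and 5, against 367195 and 326625 in Scr replicates 4 and 5. Neuron markers summed to 357920 and 302474 in P155 replicates 4 and 5, against 309714 and 229099 in Scr replicates 4 and 5. Each neural list thus exceeded the pan-leukocyte list in every library, though such sums do not give shares of cells. The preparations held much neural RNA as well as immune RNA. Fewer cells of a type cannot be told apart from less RNA per cell.

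All 36 rows passed the filter of at least 1 normalized read in at least 2 libraries. In a limma fit across all 27079 genes tested, 0 genes had a Benjamini-Hochberg adjusted p under 0.05 (0% of genes), and none of the 36 rows did. The smallest limma adjusted p among the 36 rows was 0.861. Without adjustment, 861 genes were lower and 318 higher in P155 with p under 0.05. Of the 36 rows, 2 were lower at that threshold, Itga7 and Itgb7, where 3.18% of all genes were. For higher genes the count was 0 rows, against 1.17% of all genes. The count of 2 moved with the share over all genes when a library was left out. It was 6 rows against 9.58% of genes without P155 replicate 4, and 1 row against 2.44% without P155 replicate 5. Leaving out Scr replicate 4 gave 4 rows against 5.2% of genes, and leaving out Scr replicate 5 gave 1 row against 0.788%. In 33 of the 36 rows the difference moved by over 1.5 times or changed sign when 1 library was left out, and the rows that did not were Itga7, Itgb1 and Mcam.

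The direction of the differences was uneven. Of the 36 rows, 25 were lower in P155, where 53.4% of all genes tested were. The P155 pair lay wholly below the Scr pair in 16 rows, against 19.6% of all genes tested. The P155 pair lay wholly above the Scr pair in 1 row, Alcam, against 15.2% of all genes. These rows were measured in the same 4 libraries and are not separate evidence.

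**Figure D1:**
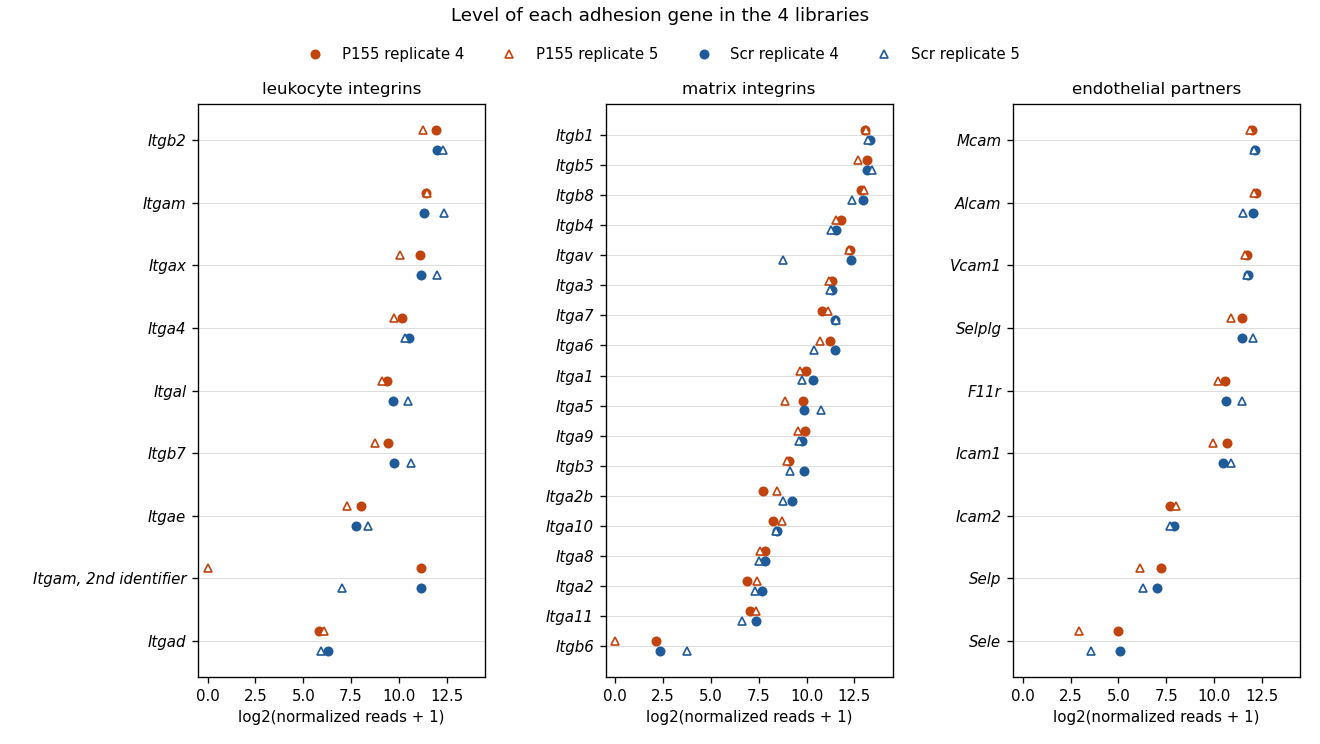
Level of each member row, as log2(normalized reads + 1) on the x axis, in the 2 P155 libraries (orange) and the 2 Scr libraries (blue), with circles for replicate 4 and triangles for replicate 5. All 3 panels share the axis range. The second Itgam identifier, between 0 and 11.17, and Itgb6, between 0 and 3.77, have the widest spreads over the libraries. Itgav comes next, with Scr replicate 5 low at 8.75.

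Leukocyte integrins had the lowest median difference of the 3 classes. All 8 were lower in P155, with differences of -1.10 to -0.14 and a median of -0.50 against -0.03 over all genes tested. The P155 pair lay wholly below the Scr pair in 5 of them, Itgb7, Itgal, Itgax, Itga4 and Itgb2. Over all genes tested this share was 19.6%. Without Scr replicate 5 Itgam lay on the other side of 0, and without Scr replicate 4 Itgad did, with values given beside each gene. The median was -0.85 without P155 replicate 4, -0.34 without P155 replicate 5, -0.84 without Scr replicate 4 and -0.40 without Scr replicate 5. Relative to pan-leukocyte genes it was 0.28.

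Itgb7 encodes the beta chain that pairs with alpha-4 or alpha-E and is known from lymphocytes that home to the gut. Its level was 9.41 and 8.78 in P155 replicates 4 and 5, against 9.74 and 10.64 in Scr replicates 4 and 5. The groups did not overlap, and P155 replicate 4 lay closer to Scr replicate 4 than to P155 replicate 5. The difference was -1.10 (SE 0.40, 95% interval -2.16 to -0.04, limma unadjusted p = 0.045, adjusted p = 0.861). The gene spans chr15:102215995-102231944 on the minus strand of mm10.

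Itgal, the alpha chain of the lymphocyte receptor for ICAM1, stood at 9.38 and 9.11 in P155 replicates 4 and 5, against 9.67 and 10.47 in Scr replicates 4 and 5. Itgax, the alpha chain used as a marker of dendritic cells and activated microglia, stood at 11.09 and 10.08 in P155 replicates 4 and 5, against 11.16 and 12.01 in Scr replicates 4 and 5. For both genes the replicates numbered 5 were the extremes, and for Itgax the replicates numbered 4 were nearly level between the groups. The difference was -0.83 for Itgal (SE 0.33, 95% interval -1.70 to 0.04), and it was -0.998 for Itgax (SE 0.46, 95% interval -2.21 to 0.21), each with limma adjusted p = 0.861.

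Itgb2 encodes the beta chain shared by the alpha chains of Itgal, Itgam, Itgax and Itgad. It was at 11.96 and 11.24 in P155 replicates 4 and 5, against 11.98 and 12.31 in Scr replicates 4 and 5. The replicates numbered 4 were nearly level again. The difference was -0.55 (SE 0.30, 95% interval -1.32 to 0.23, limma adjusted p = 0.861). It was -0.19 without P155 replicate 5 and -0.90 without P155 replicate 4.

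Itga4 encodes the alpha-4 chain, whose pairing with the beta-1 chain binds VCAM1. Its level was 10.15 and 9.77 in P155 replicates 4 and 5, against 10.54 and 10.30 in Scr replicates 4 and 5. The groups did not overlap, and here Scr replicate 4 was the higher of its group. The difference was -0.46 (SE 0.22, 95% interval -1.05 to 0.12, limma adjusted p = 0.861). Its exons overlap those of Cerkl on the opposite strand over 8.04% of their length, and whether the counting used strand is not given in the sources used here.

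Itgae, the alpha chain of tissue-resident T cells, stood at 7.998 and 7.288 in P155 replicates 4 and 5, against 7.779 and 8.396 in Scr replicates 4 and 5. Itgad, a further beta-2 partner, stood at 5.85 and 6.10 in P155 replicates 4 and 5, against 6.30 and 5.93 in Scr replicates 4 and 5. Both genes had overlapping groups. Itgad had 40 to 95 reads per library, and its difference of -0.14 turned to 0.04 without Scr replicate 4.

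Itgam, the alpha chain of the myeloid receptor for complement fragments and ICAM1, could not be read from 1 row. GENCODE M21, which uses the same build, names the first identifier Itgam (ENSMUSG00000030786, chr7:128062640-128118491) and the second Gm49368 (ENSMUSG00000108596, chr7:128062683-128128160). Both are on the plus strand, and 71.8% of the exon bases of the second are exon bases of the first. The transcripts part after the last shared exon. The 30 coding bases before and after that point are shown, with the shared exon in lower case and the start of the next exon, which is a different one in each transcript, in capitals. The shared bases are chr7:128116817-128116846, and the next exon starts at 128117306 in Itgam and at 128126808 in Gm49368 (GENCODE M21 transcripts, plus strand).
Itgam transcript: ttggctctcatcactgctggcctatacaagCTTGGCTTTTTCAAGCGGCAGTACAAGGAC
Gm49368 transcript: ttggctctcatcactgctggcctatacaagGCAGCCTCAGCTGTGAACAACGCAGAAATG

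The first identifier stood at 11.42 and 11.46 in P155 replicates 4 and 5, against 11.30 and 12.37 in Scr replicates 4 and 5. The second stood at 11.17 and 0 in P155 replicates 4 and 5, against 11.13 and 7.01 in Scr replicates 4 and 5. Reads were thus divided almost evenly in the replicates numbered 4 and went to the first identifier in the replicates numbered 5. The second identifier took 45.7% and 0% of the summed normalized reads in P155 replicates 4 and 5, against 47.1% and 2.37% in Scr replicates 4 and 5.

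With the reads of both identifiers summed, an alternative chosen after seeing the data, Itgam was at 12.30 and 11.46 in P155 replicates 4 and 5, against 12.22 and 12.40 in Scr replicates 4 and 5. P155 replicate 5 was then the low library, while the other libraries lay close together. The difference was -0.43 (SE 0.32, 95% interval -1.26 to 0.40, limma adjusted p = 0.861). For the first identifier alone it was -0.39, and it turned to 0.14 without Scr replicate 5.

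**Figure D2:**
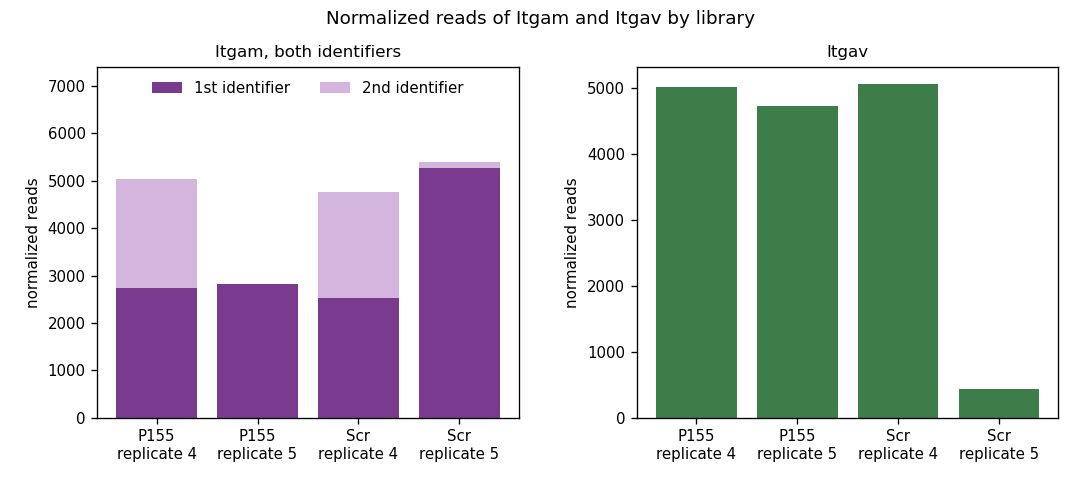
Normalized reads (linear y axis) in each library for the 2 identifiers with the symbol Itgam, stacked, and for Itgav. The second Itgam identifier holds 45.7% and 47.1% of the stack in P155 replicate 4 and Scr replicate 4 and 0% and 2.37% in P155 replicate 5 and Scr replicate 5, and Itgav is low in Scr replicate 5 alone.

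Levels were compared between genes per kilobase of merged exon length in GENCODE M21. Itgb2, with 1303 and 791 normalized reads per kilobase in P155 replicates 4 and 5, against 1324 and 1658 in Scr replicates 4 and 5, was the most abundant leukocyte integrin. Its alpha partners Itgal, Itgam with both identifiers, Itgax and Itgad summed to 1.224 and 1.117 times the level of Itgb2 in P155 replicates 4 and 5, against 1.198 and 1.304 times in Scr replicates 4 and 5. This ratio overlapped between the groups. With the first Itgam identifier alone it was 0.855 in P155 replicate 4 and 0.846 in Scr replicate 4, where the second identifier holds almost as many reads as the first. The ratio of Itgb7 to Itgb1, both partners of Itga4, was 0.119 and 0.072 in P155 replicates 4 and 5, against 0.124 and 0.249 in Scr replicates 4 and 5. P155 replicate 4 and Scr replicate 4 were close in this ratio too.

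General leukocyte genes were set beside the leukocyte integrins. The 6 pan-leukocyte genes, none of them a member, had a mean difference of -0.78. The mean level of the 8 integrins minus that of the pan-leukocyte genes was -2.14 and -2.03 in P155 replicates 4 and 5, against -2.31 and -2.20 in Scr replicates 4 and 5. This mean was 0.17 higher in P155, with both P155 libraries above the Scr ones. T cell markers were lower in 6 of 6, with summed normalized reads of 971 and 670 in P155 replicates 4 and 5, against 1056 and 2158 in Scr replicates 4 and 5. Monocyte and macrophage markers summed to 2900 and 4083 in P155 replicates 4 and 5, against 9175 and 6445 in Scr replicates 4 and 5. All 6 markers of each list had reads in every library. By list mean, the order of libraries for T cell and pan-leukocyte genes was that of the leukocyte integrins. Monocyte and macrophage markers had another order, with P155 replicate 4 lowest and Scr replicate 4 highest. The orders of B cell, neutrophil and microglia markers also differed from that of the integrins. The part of these cell types in the integrin differences was not tested.

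**Figure D3:**
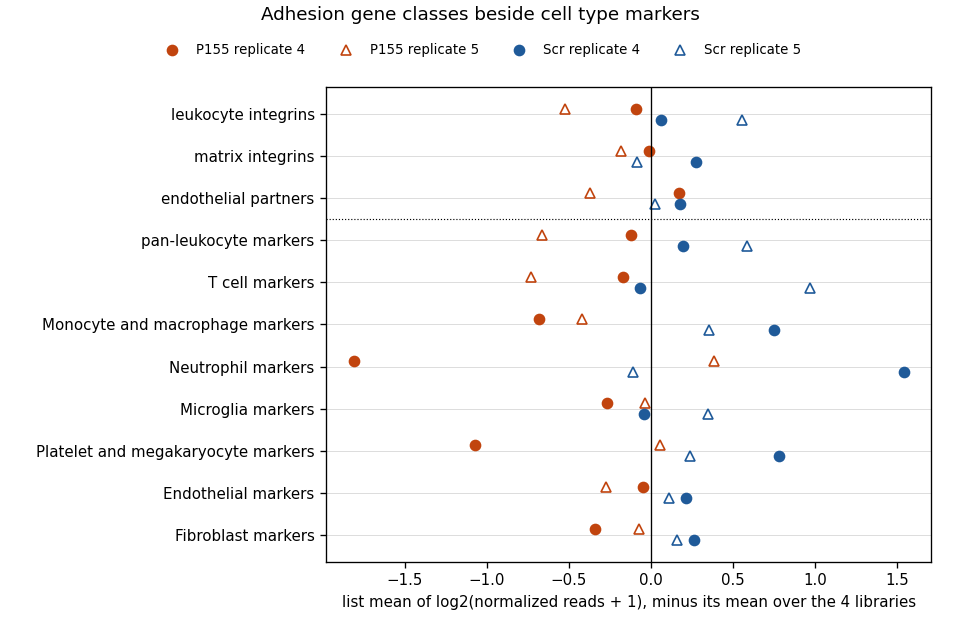
Mean of log2(normalized reads + 1) over each list, minus its mean over the 4 libraries (x axis), for the 3 adhesion gene classes above the dotted line and for cell type markers under it, with P155 in orange and Scr in blue. Leukocyte integrins run from -0.52 in P155 replicate 5 to 0.55 in Scr replicate 5, as pan-leukocyte markers do from -0.66 to 0.59.

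Promoter sequence was looked at as a description, and its part in the differences was not tested. PU.1, a transcription factor of myeloid and B cells, is known to bind around the letters GAGGAA. RefSeq promoter windows of GRCm38.p6, 300 bases each, were found for 24 of the 35 symbols, among them 4 leukocyte integrins. On either strand the letters were present in 2 of these 4, Itgam and Itgb7, in 13 of the 26 windows of all members, and in 28.3% of all 32851 windows. Itgax and Itga4 had no match in this window. The windows with a match are shown in the direction of transcription, chr7:128062390-128062689 for Itgam and chr15:102231886-102232185 on the minus strand for Itgb7, with GAGGAA or its reverse complement TTCCTC in capitals. A match is no evidence of binding.
Itgam promoter: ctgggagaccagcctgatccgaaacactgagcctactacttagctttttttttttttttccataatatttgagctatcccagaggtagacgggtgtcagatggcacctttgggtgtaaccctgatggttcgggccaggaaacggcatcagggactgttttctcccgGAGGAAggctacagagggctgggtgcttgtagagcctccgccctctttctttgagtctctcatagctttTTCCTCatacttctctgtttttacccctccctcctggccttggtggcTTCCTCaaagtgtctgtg
Itgb7 promoter: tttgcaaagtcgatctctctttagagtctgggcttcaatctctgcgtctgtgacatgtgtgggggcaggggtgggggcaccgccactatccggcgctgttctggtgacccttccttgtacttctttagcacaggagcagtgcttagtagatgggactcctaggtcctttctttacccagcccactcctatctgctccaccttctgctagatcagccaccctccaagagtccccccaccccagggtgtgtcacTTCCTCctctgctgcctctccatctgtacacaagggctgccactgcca

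Matrix integrins were mixed. Of 18, 10 were lower and 8 higher in P155, with a median of -0.10. Leaving out Scr replicate 4 gave a median of 0.03, and leaving out Scr replicate 5 gave -0.25. The P155 pair lay wholly below the Scr pair in 7, against 19.6% of all genes tested. No matrix integrin had the P155 pair wholly above the Scr pair, against 15.2% of all genes tested.

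The common beta chains were high in all libraries. Itgb1, the beta chain of most matrix integrins, stood at 13.03 and 13.13 in P155 replicates 4 and 5, against 13.30 and 13.20 in Scr replicates 4 and 5. The difference of -0.17 had a 95% interval of -0.55 to 0.21 (limma adjusted p = 0.861). Itgb5, a vitronectin receptor chain with the highest level per kilobase of all members, stood at 13.14 and 12.67 in P155 replicates 4 and 5, against 13.19 and 13.43 in Scr replicates 4 and 5. The groups of Itgb5 did not overlap, with a difference of -0.40 (SE 0.22, limma adjusted p = 0.861).

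Itgb8, whose product activates latent transforming growth factor beta and which glia and neurons express, was at 12.85 and 13.02 in P155 replicates 4 and 5, against 12.96 and 12.38 in Scr replicates 4 and 5. Only Scr replicate 5 stood apart, and the difference of 0.27 turned to -0.02 without it. Itgb4, a laminin receptor chain, was 0.25 higher in P155 (SE 0.19), with overlapping groups.

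Itga7, a laminin receptor chain known from muscle and Schwann cells, had the smallest unadjusted p of the members. It stood at 10.79 and 11.13 in P155 replicates 4 and 5, against 11.49 and 11.52 in Scr replicates 4 and 5. Both P155 libraries were low, P155 replicate 4 more so, and the Scr libraries were 0.03 apart. The difference was -0.55 (SE 0.18, 95% interval -1.03 to -0.06, limma unadjusted p = 0.0341, adjusted p = 0.861).

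Itga5, the fibronectin receptor chain, stood at 9.82 and 8.86 in P155 replicates 4 and 5, against 9.89 and 10.76 in Scr replicates 4 and 5. Like Itgax, it was nearly level between the replicates numbered 4. The difference was -0.99 (SE 0.46, 95% interval -2.20 to 0.22, limma adjusted p = 0.861). Itga6, a laminin receptor chain of endothelium and oligodendrocyte precursors, stood at 11.25 and 10.69 in P155 replicates 4 and 5, against 11.48 and 10.39 in Scr replicates 4 and 5. It followed the replicate number, not the group, with a difference of 0.03 (SE 0.43). Itga9, whose product can bind VCAM1 and tenascin-C, stood at 9.92 and 9.55 in P155 replicates 4 and 5, against 9.76 and 9.61 in Scr replicates 4 and 5, also with overlapping groups.

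Itga2b and Itgb3 encode the fibrinogen receptor of platelets. Itga2b stood at 7.73 and 8.48 in P155 replicates 4 and 5, against 9.26 and 8.80 in Scr replicates 4 and 5, a difference of -0.93 (SE 0.36, 95% interval -1.88 to 0.02, limma adjusted p = 0.861). Itgb3, which also pairs with Itgav outside platelets, stood at 9.07 and 9.01 in P155 replicates 4 and 5, against 9.85 and 9.16 in Scr replicates 4 and 5. In both genes Scr replicate 4 was highest and the groups did not overlap. The 6 platelet and megakaryocyte markers, such as Pf4, were all lower, with summed normalized reads of 407 and 827 in P155 replicates 4 and 5, against 1550 and 1159 in Scr replicates 4 and 5. The order of libraries was the same as for Itga2b, all 6 markers had reads in every library, and the part of platelets in these differences was not tested.

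Itgav, the alpha chain of the vitronectin receptors, had the largest positive difference, 1.72, with an SE of 1.18 and a 95% interval of -1.38 to 4.82 (limma adjusted p = 0.861). It stood at 12.29 and 12.21 in P155 replicates 4 and 5, against 12.31 and 8.75 in Scr replicates 4 and 5. The difference rests on Scr replicate 5, with 510 reads against 6212 in Scr replicate 4, and it turned to -0.06 without that library. A gap of at least 3.56 between the Scr libraries was found in 30 of 9894 genes with a level of at least 10 in some library, or 0.303%. Exons of Gm13684, on the opposite strand, overlap 5.90% of the exon bases of Itgav. Gm13684 had 6 and 0 reads in P155 replicates 4 and 5, against 6 and 0 in Scr replicates 4 and 5, too few for a comparison.

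The other matrix integrins had small differences next to their errors. Itga3, Itga8, Itga10 and Itga11 differed by -0.02 to 0.21, and Itga1 and Itga2 by -0.25 and -0.35, all with overlapping groups. Itga10 shares 33.5% of its exon bases with Gm42957 on the same strand, so its reads may have been divided by the counting. Itgb6, an epithelial chain, had 4 and 0 reads in P155 replicates 4 and 5, against 5 and 15 in Scr replicates 4 and 5. A count of 0 in P155 replicate 5 allows up to 5.06 normalized reads, by counting error alone. The difference in Itgb6 had a limma 95% interval of -4.79 to 0.80, so it was not resolved at these counts.

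**Figure D4:**
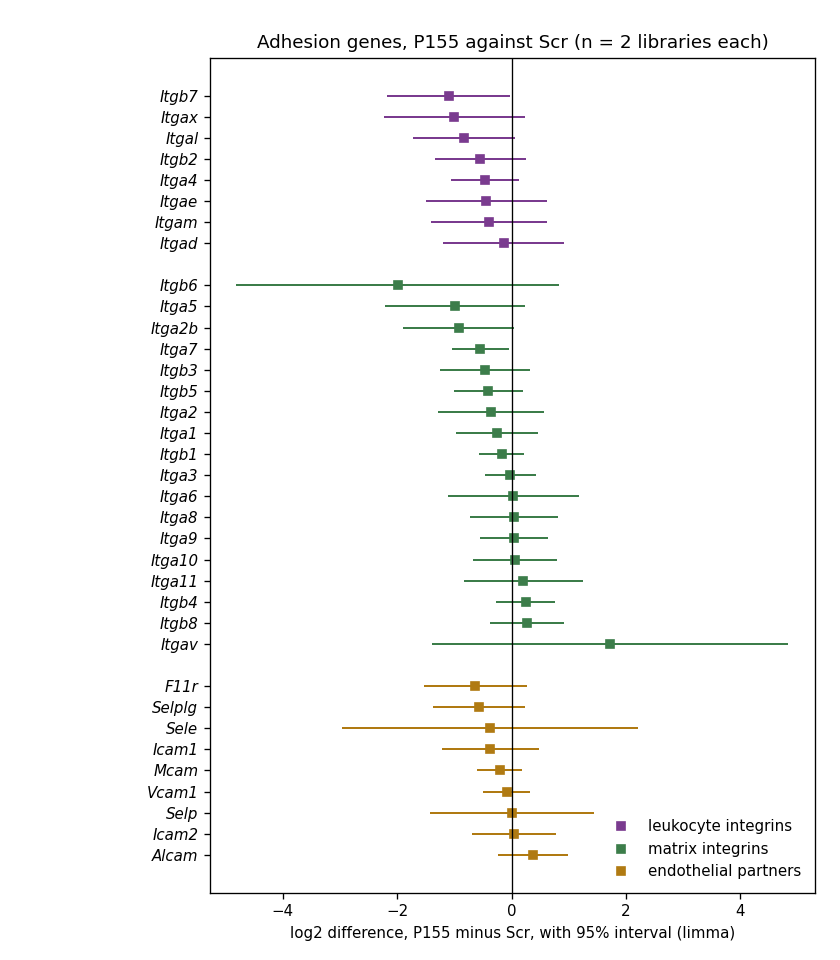
Log2 difference, P155 minus Scr, with its 95% interval from limma (x axis), for the 35 symbols by class, with Itgam by its first identifier. The 8 leukocyte integrins all lie left of 0, the 18 matrix integrins lie on both sides, and the wide bars of Itgav and Itgb6 reflect libraries that disagreed within a group.

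Endothelial partners had a median difference between those of the other classes. The P155 pair lay wholly below the Scr pair in 4 of them and wholly above it in 1. Over all genes tested these shares were 19.6% and 15.2%. Of 9, 6 were lower and 3 higher in P155, with a median of -0.21 that was -0.53 without P155 replicate 4, -0.030 without P155 replicate 5 and -0.06 without Scr replicate 4. Vcam1, the endothelial ligand of alpha-4 integrins, stood at 11.71 and 11.59 in P155 replicates 4 and 5, against 11.76 and 11.71 in Scr replicates 4 and 5. All 4 libraries were within 0.17 of each other, and the difference of -0.09 had a 95% interval of -0.48 to 0.30 (limma adjusted p = 0.921). Icam1, the ligand of beta-2 integrins that inflammation induces on endothelium and glia, stood at 10.65 and 9.92 in P155 replicates 4 and 5, against 10.45 and 10.86 in Scr replicates 4 and 5. P155 replicate 5 was the low library, the groups overlapped, and the difference of -0.37 had a 95% interval of -1.20 to 0.46. The Icam1 difference was -0.0048 without P155 replicate 5 and -0.74 without P155 replicate 4. Icam1 shares 11.7% of its exon bases with Gm47079 on the opposite strand.

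Icam2, a ligand that endothelium carries at rest, stood at 7.72 and 7.99 in P155 replicates 4 and 5, against 7.91 and 7.70 in Scr replicates 4 and 5, with overlapping groups. Mcam, an adhesion molecule of endothelium and pericytes, was at 11.96 and 11.87 in P155 replicates 4 and 5, against 12.16 and 12.09 in Scr replicates 4 and 5. Its groups did not overlap, and the difference was -0.21 (SE 0.14, limma adjusted p = 0.861). Alcam, which binds CD6 on T cells and is also found on neurons, was at 12.20 and 12.10 in P155 replicates 4 and 5, against 12.04 and 11.51 in Scr replicates 4 and 5. It was the member with the P155 pair wholly above the Scr pair, with a difference of 0.37 (SE 0.23, 95% interval -0.22 to 0.97, limma adjusted p = 0.861).

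F11r, a tight junction molecule of endothelium, epithelium and leukocytes, stood at 10.59 and 10.20 in P155 replicates 4 and 5, against 10.62 and 11.43 in Scr replicates 4 and 5. The replicates numbered 4 were nearly level, and the difference was -0.63 (SE 0.33, limma adjusted p = 0.861). Endothelial markers outside the members, such as Cdh5, were lower in 8 of 9, with summed normalized reads of 14873 and 12018 in P155 replicates 4 and 5, against 17648 and 16662 in Scr replicates 4 and 5. Their mean difference was -0.32, and the mean level of the partners minus theirs was 0.12 higher in P155, with overlapping groups. All 9 had reads in every library, and their part in the differences of the partners was not tested.

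The selectins were at the low end. Selp, which endothelium and platelets store in granules, stood at 7.22 and 6.13 in P155 replicates 4 and 5, against 7.04 and 6.30 in Scr replicates 4 and 5. Sele, the selectin that endothelium makes on activation, had 36 and 4 reads in P155 replicates 4 and 5, against 41 and 13 in Scr replicates 4 and 5. Both genes followed the replicate number and not the group, with differences of 0.01 for Selp (SE 0.54) and -0.38 for Sele (SE 0.97). Selplg, the leukocyte ligand of P-selectin, was at 11.48 and 10.89 in P155 replicates 4 and 5, against 11.48 and 12.02 in Scr replicates 4 and 5. Its level was the same to the second decimal in the replicates numbered 4, and the difference was -0.57 (SE 0.30, limma adjusted p = 0.861).

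An FDR under 0.05 in the authors' deposited table was reached by 0 of the 36 rows, where 0.36% of all genes were called lower and 0.171% higher. At an unadjusted p under 0.05 the authors' deposited table holds 8 of the 36 rows, all lower, against 4.27% of all genes lower and 1.98% higher. These were Itgb7, Itga7, Itgal, Itga2b, Itga5, F11r, Itga4 and Selplg, with the smallest FDR, 0.2, at Itgb7 in the authors' deposited table.

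Other genes of the pathway gave no gene past adjustment. Of 28 adaptors and activators of integrins that were tested, 16 were lower and 12 higher. In limma 3 were lower at an unadjusted p under 0.05. Over all genes tested, 53.4% were lower and 3.18% were lower at that threshold. The parvin genes Parvg and Parvb, whose products link integrins to actin, differed by -0.94 (SE 0.25) and -0.59 (SE 0.17), and the kinase gene Ptk2b by -0.81 (SE 0.26), each with limma adjusted p = 0.861. Parvg is the blood cell form, and it stood at 9.69 and 9.25 in P155 replicates 4 and 5, against 10.24 and 10.59 in Scr replicates 4 and 5.

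Of 23 other adhesion molecules, 13 were lower and 10 higher, where 53.4% of all genes tested were lower. In limma 4 were lower at an unadjusted p under 0.05, against 3.18% of all genes tested. The leukocyte sialomucin gene Spn differed by -0.81 (SE 0.23) and the endothelial junction gene Esam by -0.80 (SE 0.26). Of 11 genes whose products modify selectin ligands, 9 were lower, where 53.4% of all genes tested were, and 0 passed the unadjusted threshold. The galactosyltransferase gene B4galt1 differed by -0.68 (SE 0.28), and the sialyltransferase gene St3gal3 and the sulfotransferase gene Tpst2 by -0.25 and -0.30.

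Matrix ligands were the most one-sided of these lists, with 21 of 23 lower, where 53.4% of all genes tested were. In limma 3 were lower at an unadjusted p under 0.05, against 3.18% of all genes tested. The list also held genes of transforming growth factor beta and its anchors, Tgfb1, Tgfb2, Tgfb3, Lrrc32 and Nrros. Several genes counted as lower lay near 0, such as Fn1 at -0.005 and Vtn at -0.010. The median difference of the list was -0.21, against -0.03 over all genes tested. Tnc, which encodes the integrin ligand tenascin-C, stood at 9.90 and 9.77 in P155 replicates 4 and 5, against 10.60 and 10.52 in Scr replicates 4 and 5, a difference of -0.72 (SE 0.17, limma adjusted p = 0.861). The basement membrane collagen gene Col4a1 and the gene Tgfb1 differed by -0.45 (SE 0.16) and -0.67 (SE 0.25). Fibroblast markers were lower in 5 of 6. Their summed normalized reads were 43140 and 55249 in P155 replicates 4 and 5, against 77011 and 68753 in Scr replicates 4 and 5. The part of fibroblasts or of leukocytes in the differences of this list was not tested.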

How the data were processed

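The submitters' processing notes name bcl2fastq, STAR 2.5.3a, DESeq2 and mm10. The sources used here give no read counter, annotation, strand setting or filter. The deposited file has a log2 value for every gene in each of 4 libraries, the authors' mean per group, their log2 fold change, and their p-value with an FDR from an unnamed test. After removal of the log2 and of the added 1, all values (100%) were whole reads times a constant, within a tolerance of 1e-06, and the size factors were 0.592 to 1.23. Members, classes and lists were chosen with earlier results of these data known.

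Groups were compared with limma 3.58.1 (R 4.3.3), fitting log2(value + 1) with a trended variance and two-sided tests. Genes entered when 2 or more libraries reached a normalized value of 1, which left 27079, and p-values were adjusted over all of them by Benjamini-Hochberg with a threshold of 0.05. This scale understates differences of genes at low levels. The fit was tested on simulated data. Class medians are descriptions without a test. Values per library were given for leukocyte integrins, endothelial partners, 9 matrix integrins and the 8 members with the smallest p, and up to 3 genes were named per list around the pathway, of which 1 is not reported here. Alternatives were a replicate block, leaving out each library (its partner then borrows the spread of the other group), scaling by library size, no filter, a filter at 1 CPM in 2 libraries plus 50 reads on average, a pseudocount of 0.1, limma-voom on recovered reads, a robust variance prior, a threshold of 0.1, and levels relative to other genes. Quantile normalization, summing the Itgam identifiers and leaving out Itgav were chosen after seeing the data.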

Additional observations from a re-analysis of the deposited data

How the results depend on the processing

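No member passed adjustment under any of the 12 alternative fits or at a threshold of 0.1, and over all genes the count was 0 except without P155 replicate 4, where it was 6, so that leaving out 1 library gave 0 to 6. The count of members lower at an unadjusted p under 0.05, reported as 2, was 1 with the replicate block (2.9% of all genes), 1 with a pseudocount of 0.1 (3.39%) and 4 with a robust prior (2.99%), and it ranged over 1 to 6 without single libraries, where the share over all genes ranged over 0.788% to 9.58%. The numbers 4 and 5 share no stated animal or batch, so the block has no stated basis in the design. Deviations of same-numbered libraries correlated by 0.0705 across genes, although the second Itgam identifier, Itga6, Selp and Sele followed the replicate number. A factor shared by same-numbered libraries was not tested. The leukocyte integrin median of -0.50 was -0.85 to -0.34 without single libraries and 0.28 after the mean of pan-leukocyte genes was subtracted, which turns its sign, or 0.17 as a mean less that mean. The endothelial partner median of -0.21 was -0.53 to -0.0301 without single libraries and 0.11 relative to endothelial genes. The other alternatives moved the class medians by less than the spread between libraries. Of the 36 rows, 19 stayed lower and 2 stayed higher in all 12 fits, or those that kept the row, and the others changed sign only when 1 library was left out. Counting error was largest for Itgb6 and Sele, the members with the fewest reads.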

Other observations

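Other marker lists, given as values, were lower in P155 for B cells, in 5 of 5 genes with a median difference of -1.47, and lower for microglia in 5 of 6 with a median of -0.35. Neutrophil markers were lower in 6 of 6, with a median of -1.37, although P155 replicate 5 lay above Scr replicate 5 in their list mean. Pericyte and smooth muscle markers were lower in 5 of 7 with a median of -0.14. Astrocyte and oligodendrocyte markers had medians of 0.01 and 0.10, and neuron markers were higher in 5 of 5 with a median of 0.26. No gene of these lists passed the limma test across all genes.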
